A study of Mus musculus with 15 samples.

Results

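Peaks of open chromatin were examined at 4 genes of TGF-beta and activin signalling, Acvr2a, Tgfbr1, Smad2 and Skil, in mouse pancreatic islets. Every row carrying one of these gene symbols was taken from 4 differential peak tables, which gave 17 of 41774 distinct rows, namely 4, 5, 4 and 4 rows per table. Of these, 16 were a promoter peak of each gene in each table and 1 was a distal peak assigned to Skil, listed only in the comparison of genotypes after surgery. The genes were chosen from measured values of the 2 genotype comparisons, Skil, Tgfbr1 and Smad2 because their promoters were called as gained after surgery and Acvr2a and Tgfbr1 because their folds before surgery were among the higher ones. Their values in those comparisons are therefore a description, and the 2 comparisons across surgery, which reuse the same libraries, are not independent of the choice.

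The assay was ATAC-seq, in which a transposase inserts sequencing adapters into accessible DNA. All mice were males of 3 months with Arid1aFl/Fl alleles and MIP-rtTA, a doxycycline-controlled activator under the mouse insulin promoter, and the labels' protocols give doxycycline for all mice without distinction. Controls (Arid1aFl/Fl; MIP-rtTA) carried no Cre, and the Arid1a βKO mice (Arid1aFl/Fl; MIP-rtTA; TRE-Cre) also carried a Cre gene that answers to the activator, so Cre is limited to cells that use the insulin promoter while whole islets were assayed. Libraries were made at baseline from 4 control and 3 βKO mice, and 6 days after partial pancreatectomy (PPx), which removes part of the pancreas, from 4 control and 4 βKO mice. The tables hold means over the libraries of a group, so the spread between single mice and the depth of each library are not analysed here.

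TGF-beta and activin ligands bind pairs of type II and type I receptor kinases on the cell surface. Acvr2a encodes an activin type II receptor, Tgfbr1 the TGF-beta type I receptor ALK5, and Smad2 a receptor-phosphorylated transcription factor that enters the nucleus with SMAD4. Skil encodes SnoN, a co-repressor that binds SMAD complexes and is itself a target of the pathway, which closes a negative feedback loop. In islets, this pathway is known for its influence on beta cell maturity, insulin secretion and replication.

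Only the receptor genes had promoter windows in the reference used here, so their letters are shown. Their peaks also held nearly the same place in every table. The sequences are RefSeq promoter windows of build GRCm38.p6 (mm10), the 250 bases before the annotated start, on the plus strand. Capitals mark matches of the motifs searched on both strands, which were the SMAD box CAGAC, the GC-rich SMAD motif GGCGCC, AP-1 TGANTCA, the E-box CACGTG, the box CCAAT, the GC box GGGCGG, the ETS core CGGAAG, the CRE core TGACG and TATAAA. The window of Acvr2a is chr2:48813859-48814108 and that of Tgfbr1 is chr4:47352972-47353221, and each lies wholly inside its promoter peak in the comparison of genotypes after PPx.
Acvr2a: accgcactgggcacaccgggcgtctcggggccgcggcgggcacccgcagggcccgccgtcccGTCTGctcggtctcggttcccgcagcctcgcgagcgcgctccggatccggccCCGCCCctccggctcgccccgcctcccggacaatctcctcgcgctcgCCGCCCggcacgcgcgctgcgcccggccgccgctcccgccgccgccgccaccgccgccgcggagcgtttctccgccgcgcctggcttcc
Tgfbr1: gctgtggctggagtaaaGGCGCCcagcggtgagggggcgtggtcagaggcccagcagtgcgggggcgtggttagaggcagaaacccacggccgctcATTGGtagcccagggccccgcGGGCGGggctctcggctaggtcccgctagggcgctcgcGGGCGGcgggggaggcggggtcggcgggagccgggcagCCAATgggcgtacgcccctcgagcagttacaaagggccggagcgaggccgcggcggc

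The Acvr2a window was 82.0% G+C with 49 CpG dinucleotides, and the Tgfbr1 window was 74.8% G+C with 29. The median over the 5464 promoter windows lying inside a listed promoter peak after PPx was 62.0% G+C. The ratio of observed to expected CpG was 1.23 for Acvr2a, 0.88 for Tgfbr1 and 0.80 at the median of those windows. Of those windows, 99.1% had a lower CpG ratio than Acvr2a and 65.9% a lower one than Tgfbr1. Acvr2a held 1 SMAD box, which 39.1% of the open windows and 42.2% of all 32851 windows also hold, and 2 GC boxes, found in 67.5% and 32.7%. Tgfbr1 held 1 GC-rich SMAD motif (18.6% and 9.59%), 2 CCAAT motifs (46.1% and 33.8%) and 2 GC boxes. In neither window did the letters of AP-1 (3.07% of open windows), the E-box (8.53%), the ETS core (31.7%), the CRE core (33.3%) or TATAAA (4.47%) occur, and none of the matches shown overlap. A further RefSeq start of Tgfbr1, with its window at chr4:47385966-47386215, had no listed peak over it after PPx and a CpG ratio of 0.17. Promoter windows of Skil and Smad2 are not in the reference used here, so their sequences are not shown.

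All peaks are 601 bp wide, but the tables placed the windows of Skil and Smad2 differently. In the genotype table after PPx, mm10 positions were chr2:48813786-48814386 for Acvr2a (ENSMUSG00000052155), chr4:47352797-47353397 for Tgfbr1 (ENSMUSG00000007613), chr18:76241213-76241813 for Smad2 (ENSMUSG00000024563) and chr3:31094470-31095070 for Skil (ENSMUSG00000027660), each annotated by the authors as promoter within 1 kb of a start site. Measured from the lower end of the RefSeq gene to the peak centre, the windows of Acvr2a lay between -58 and -4 bp and those of Tgfbr1 between -154 and -125 bp. Smad2 windows lay wholly inside the gene, with centres at 625 and 626 bp in the genotype table before PPx and the table of PPx in controls, and at 423 and 420 bp in both tables that hold the KO-labelled libraries taken after PPx. Skil windows were centred at -17 and -20 bp in the genotype table before PPx and the table of PPx in KO-labelled islets, but at -288 bp in the genotype table after PPx and at -367 bp in the table of PPx in controls. Values of Skil and Smad2 from different tables therefore come from partly different DNA.

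**Figure D1:**
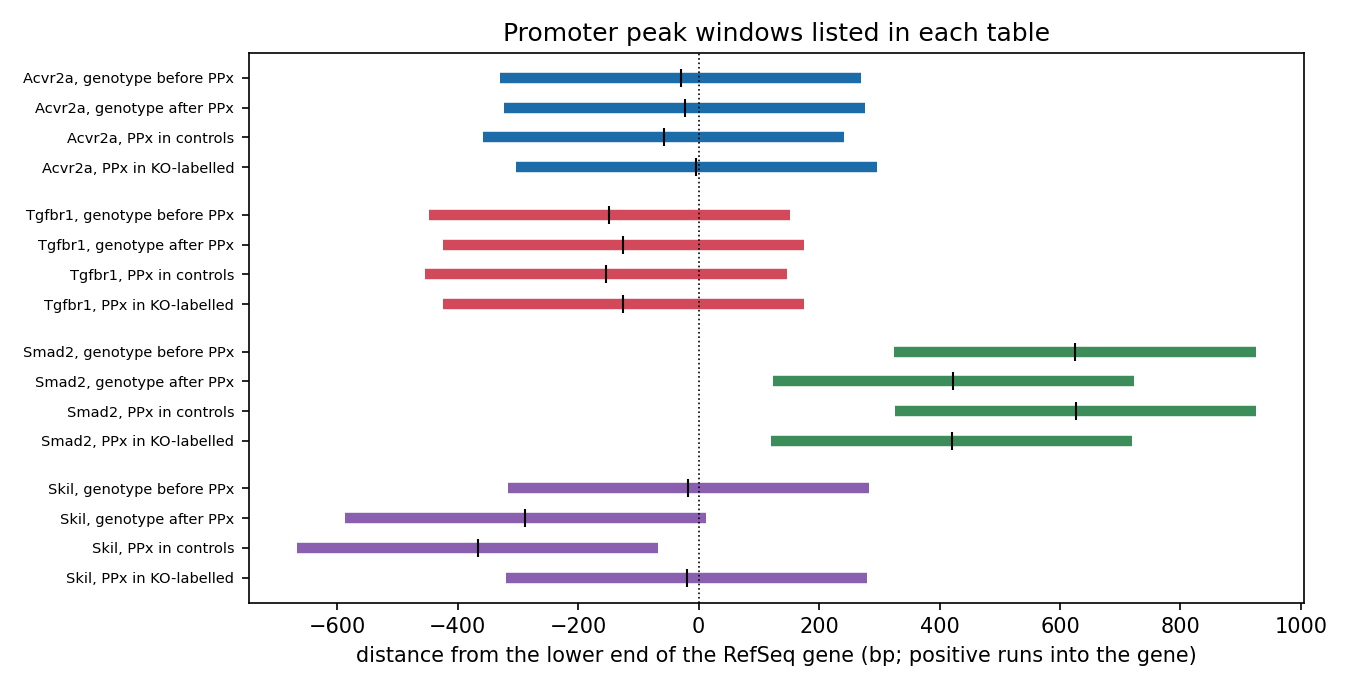
Position of each 601 bp promoter peak window (bar) and its centre (tick), in bp from the lower end of the RefSeq gene, for 4 genes in 4 tables. Acvr2a and Tgfbr1 centres moved by at most 54 and 29 bp, those of Smad2 by 206 bp and those of Skil by 350 bp.

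The groups are called KO-labelled below because the only listed peak of the targeted gene, in exon 9 of Arid1a, was higher under the KO label, at 5.49 against 1.21 before PPx and at 4.04 against 0.40 after PPx in the authors' deposited tables. The labels do not name the deleted exon. Levels are the authors' group means on a log2 scale of normalised reads per peak, so 4 corresponds to 16.0 reads. Scaling differed between tables: the same 4 control libraries before PPx read 0.18 lower at the median of 7011 matched peaks in the table of PPx in controls than in the genotype table, and the 3 KO-labelled libraries before PPx read 0.23 lower in the table of PPx in KO-labelled islets. Levels are therefore compared within a table.

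In resting control islets, the type II receptor promoter was the most open of the 4 and that of Smad2 the least. In the genotype table before PPx, the authors' mean level in controls was 4.72 at Acvr2a (26.4 normalised reads), 4.50 at Tgfbr1 (22.6 reads), 4.37 at Skil (20.7 reads) and 3.52 at Smad2 (11.5 reads). Among all 5477 promoter peaks of that table, 74.7% lay lower than Acvr2a, 66.1% lower than Tgfbr1, 60.5% lower than Skil and 14.7% lower than Smad2. The peak was called in 3 of 4 control libraries at Acvr2a, 4 of 4 at Tgfbr1, 3 of 4 at Skil and 1 of 4 at Smad2. The Smad2 window here ran from 325 to 925 bp inside the gene, whereas the windows of the other genes spanned the lower gene end. The part of this placement in the low Smad2 level was not tested. Whether neighbours in this order differ beyond their spread was not tested, since no value per library is given. A more open site in each cell and an open site in more cells cannot be told apart in whole islets.

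The order held in part across the other groups. Acvr2a was highest in both groups of all 4 tables, from 4.69 in controls before PPx to 5.86 in KO-labelled islets after PPx. Smad2 was lowest among the promoters in 7 of the 8 group means and stood just above Skil, at 4.96 against 4.93, in KO-labelled islets after PPx in the table of PPx in KO-labelled islets. Tgfbr1 and Skil lay within 0.01 of each other in both groups of the genotype table after PPx.

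**Figure D2:**
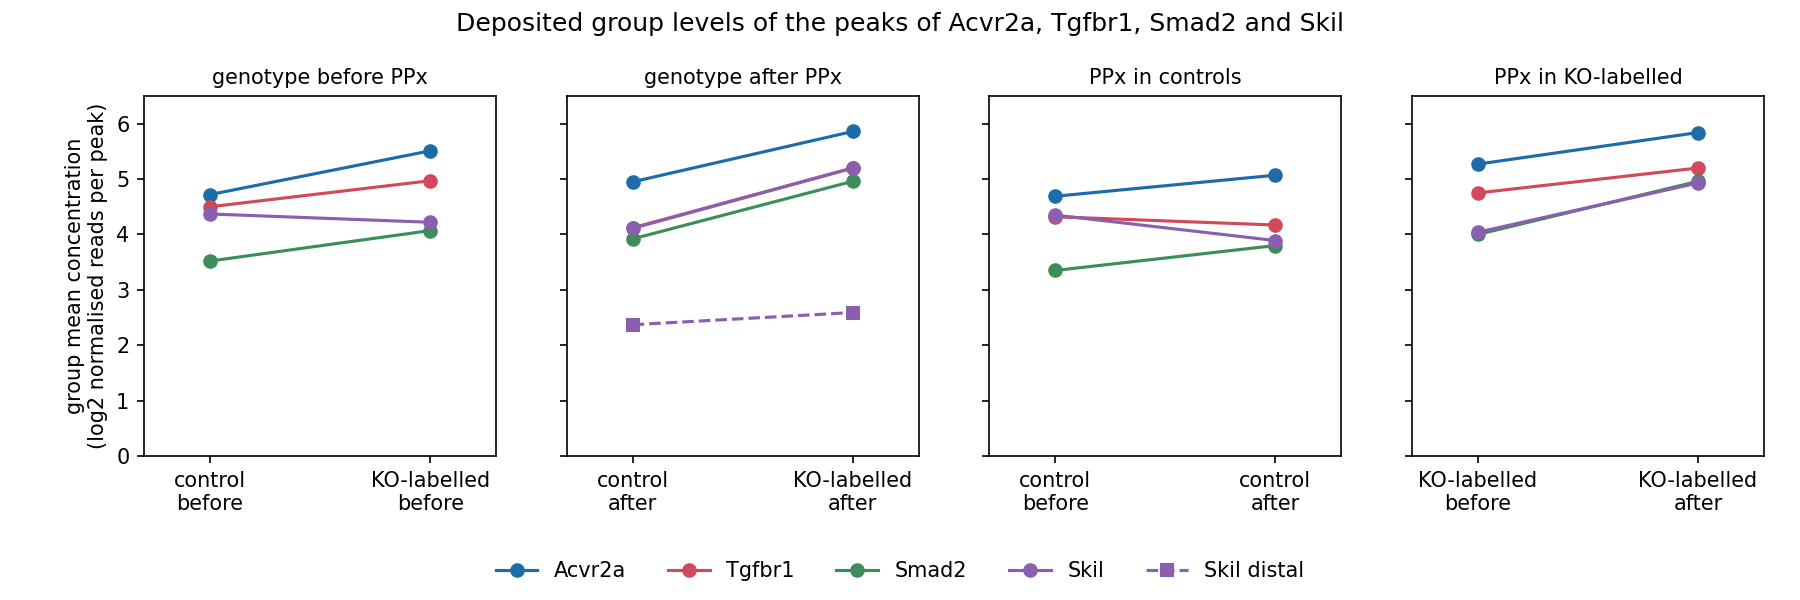
Authors' group mean levels (log2 normalised reads per 601 bp peak) of the promoter peaks (circles) and the distal Skil peak (squares) in the groups of each deposited table; lines join the group means of a table. Acvr2a is highest in every group, and the lines of Tgfbr1 and Skil coincide at 4.12 and 4.11 and at 5.20 in the genotype table after PPx.

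Before PPx, the genotype comparison gave higher means under the KO label at both receptors and at Smad2 and a slightly lower one at the co-repressor gene Skil. The Acvr2a promoter stood at 4.72 in controls and 5.51 in KO-labelled islets, a log2 difference of 0.79 in the authors' deposited table (implied SE 0.37 and FDR 1). At Tgfbr1 the means were 4.50 and 4.97, a difference of 0.48 in the authors' deposited table (implied SE 0.36 and FDR 1). Smad2 had means of 3.52 and 4.07, a difference of 0.55 in the authors' deposited table (implied SE 0.49 and FDR 1), the peak being detected in 1 of 4 control libraries against 3 of 3 with the KO label. Skil had means of 4.37 and 4.22, a difference of -0.15 in the authors' deposited table (implied SE 0.38 and FDR 1). The share of the 7826 peaks with a lower fold was 98.3% for Acvr2a, 93.9% for Smad2, 91.2% for Tgfbr1 and 33.7% for Skil. By the authors' test at an FDR of 0.05, 0 of the 4 peaks were called, where 0.0128% of all peaks were. The unadjusted p in the authors' deposited table was under 0.05 at 1 of the 4, Acvr2a (p = 0.0309). Acvr2a was chosen for its fold in this comparison, and the share of all peaks under that p is not given here. The implied SE is the size of the fold divided by the normal quantile of the deposited p, and it rests on reading that p as a two-sided test of spread between libraries.

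After PPx, promoters of all 4 genes had higher means under the KO label, and those of Skil, Tgfbr1 and Smad2 were called as gained. The Tgfbr1 promoter stood at 4.12 in controls (17.4 reads) and 5.20 in KO-labelled islets (36.8 reads), a log2 difference of 1.08 in the authors' deposited table (implied SE 0.31 and FDR 0.0265). The peak was called in 4 of 4 libraries of both groups. At Skil the means were 4.11 and 5.20, a difference of 1.09 in the authors' deposited table (implied SE 0.31 and FDR 0.0265), and the peak was detected in 2 of 4 control libraries against all 4 with the KO label. Smad2 had means of 3.92 and 4.96, a difference of 1.03 in the authors' deposited table (implied SE 0.35 and FDR 0.0396), and was detected in 3 of 4 control libraries and in every KO-labelled one. Acvr2a had the highest level in both groups, 4.95 and 5.86, and the smallest of the 4 promoter differences, 0.91 in the authors' deposited table (implied SE 0.37 and FDR 0.0606). Smad2 was thus just inside the threshold and Acvr2a just outside it.

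These gains sat on a rise of the whole table. Of its 13111 peaks, 9.89% were gained at that FDR, of its 8050 promoter peaks 14.3% were gained, and the median log2 fold was 0.61 over all peaks and 0.71 over promoters. Relative to the promoter median, the folds were higher by 0.38 at Skil, 0.37 at Tgfbr1, 0.32 at Smad2 and 0.20 at Acvr2a, and the 95% interval of each fold includes that median. The share of promoter peaks with a lower fold was 91.1% for Skil, 90.6% for Tgfbr1, 87.4% for Smad2 and 76.2% for Acvr2a. With folds centred on the median of all peaks, 0 of the 5 peaks were called, against 0.389% of all peaks, and with Benjamini-Hochberg adjustment over all listed peaks 2 were called, Skil and Tgfbr1 (adjusted value 0.0366 for both), against 4.20% of all peaks. At an FDR of 0.01, 0 of the 5 peaks were called, against 0.0229% of all peaks, at an FDR of 0.1 all 4 promoters were called, against 25.9%, and with centring on promoter peaks 0 were called, against 0.587%. Wider accessibility and libraries of stronger signal cannot be told apart as the source of this common rise.

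The distal peak of Skil was weak, and its difference was not resolved. It lies at chr3:31123229-31123829, starting 306 bp beyond the far end of the RefSeq gene, and was annotated as distal intergenic. Its authors' means were 2.37 in controls and 2.59 in KO-labelled islets after PPx, or 5.2 and 6.0 reads, with a call in 1 of 4 libraries of each group. The log2 difference was 0.22 in the authors' deposited table (implied SE 0.68 and FDR 1), below the median of all peaks. All 402 peaks of the table at or below its mean concentration of 2.48 have a deposited FDR of 1, and the interval of the difference, -1.11 to 1.55, includes the fold of the promoter.

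**Figure D3:**
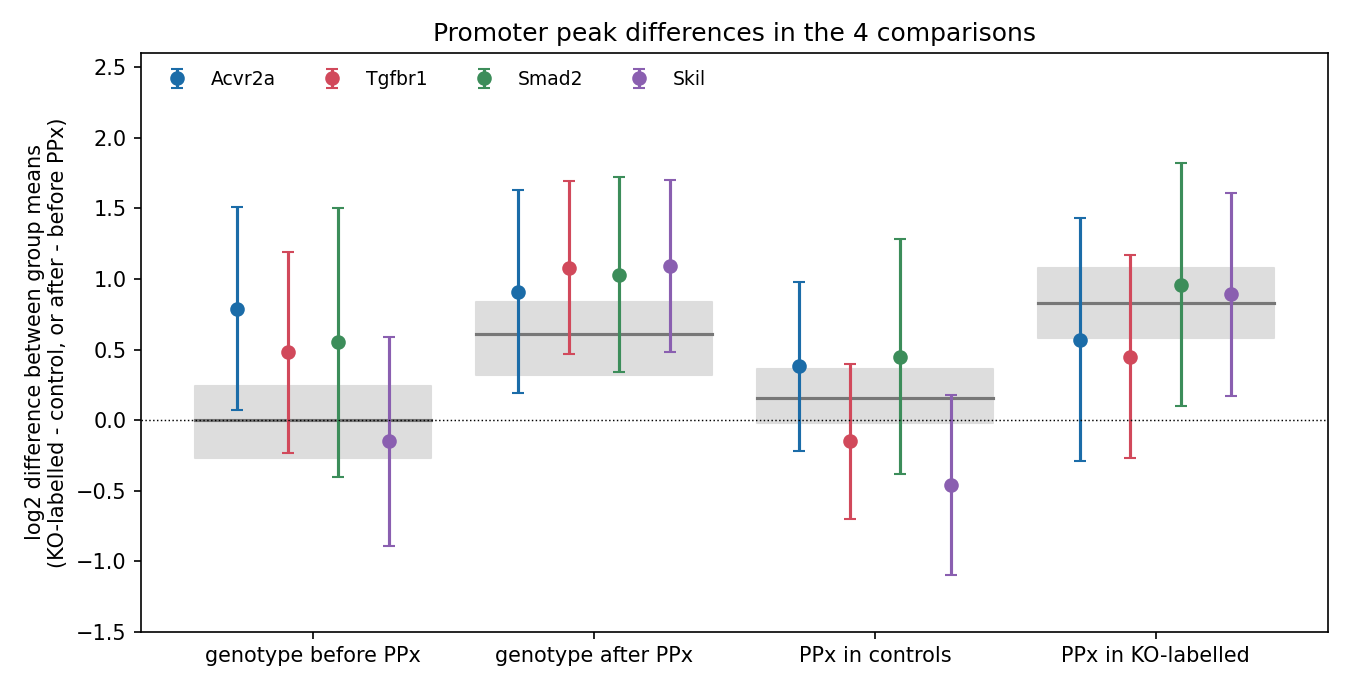
Log2 difference of the authors' group means (points) with 95% intervals from the implied SE (bars) for the 4 promoter peaks in each comparison; the grey line is the median and the grey band the middle 50% of folds over all peaks of the table. All 4 points lie above the band after PPx in the genotype comparison, whereas those of PPx in KO-labelled islets lie on both sides of the median of 0.83.

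In control islets, PPx left the receptor and signalling promoters on both sides of zero, and 0 of the 4 peaks were called by the authors' test, where 0% of 8070 peaks were. The unadjusted p of that test ran from 0.161 at Skil to 0.596 at Tgfbr1. Acvr2a had authors' means of 4.69 before and 5.07 after PPx, a log2 difference of 0.38 in the authors' deposited table (implied SE 0.31 and FDR 0.999). Tgfbr1 read 4.32 and 4.17, a difference of -0.15 in the authors' deposited table (implied SE 0.28 and FDR 0.999), and was called in all 4 libraries of each group. For Smad2 the means were 3.35 and 3.80, a difference of 0.45 in the authors' deposited table (implied SE 0.42 and FDR 0.999), and the peak was detected in 1 of 4 baseline libraries and 3 of 4 later ones. Skil read 4.35 and 3.89, a difference of -0.46 in the authors' deposited table (implied SE 0.33 and FDR 0.999), and the peak was detected in 3 of 4 baseline libraries and 2 of 4 later ones. The Skil fold was among the lowest of the table, with 2.0% of promoter peaks lower, whereas 86.0% of promoter peaks lay lower than Smad2. Each of the 4 intervals includes both 0 and the table's median fold of 0.16 (-1.10 to 0.18 for Skil), so neither a change of these promoters nor its absence was resolved.

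In KO-labelled islets, all 4 promoters had higher means after PPx, and none reached the authors' FDR of 0.05. The share of all 12767 peaks gained was 7.45%, the median fold was 0.83, and 97.1% of peaks had a fold above 0. The authors' test gave an unadjusted p of 0.0278 for Smad2, 0.0159 for Skil, 0.194 for Acvr2a and 0.218 for Tgfbr1. The share of all peaks under those p-values is not given here. At an FDR of 0.1, 2 of the 4 were called, Smad2 and Skil, against 31.1% of all peaks. Smad2 had means of 4.00 and 4.96, a log2 difference of 0.96 in the authors' deposited table (implied SE 0.44 and FDR 0.087). Skil had means of 4.04 and 4.93, a difference of 0.89 in the authors' deposited table (implied SE 0.37 and FDR 0.0703). For Acvr2a they were 5.27 and 5.84, a difference of 0.57 in the authors' deposited table (implied SE 0.44 and FDR 0.257), and for Tgfbr1 4.75 and 5.20, a difference of 0.45 (implied SE 0.37 and FDR 0.28). The share of promoter peaks with a lower fold was 61.9% for Smad2, 53.6% for Skil, 18.2% for Acvr2a and 10.7% for Tgfbr1, and the 95% intervals of all 4 folds include the table's median. Each of these peaks was detected in all 3 baseline libraries and in all 4 libraries taken after PPx.

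The genotype difference after PPx minus that before it is built from 4 disjoint groups and is given with no test, because the genes were chosen on its parts. It was 1.24 at Skil (implied SE 0.49, 95% interval 0.28 to 2.20), 0.60 at Tgfbr1 (implied SE 0.48, -0.34 to 1.54), 0.48 at Smad2 (implied SE 0.60, -0.70 to 1.66) and 0.12 at Acvr2a (implied SE 0.52, -0.90 to 1.14). Over 5349 promoter peaks matched between both genotype tables the median of this quantity was 0.68, with Skil above it and the other 3 genes below it, and all 4 intervals include that median and overlap each other. The share of matched promoters with a lower value was 90.5% for Skil, 41.4% for Tgfbr1, 29.2% for Smad2 and 7.1% for Acvr2a. The same contrast built from the tables across PPx gave 1.35 at Skil, 0.60 at Tgfbr1, 0.51 at Smad2 and 0.19 at Acvr2a, from the same 15 libraries. Its 95% intervals were 0.38 to 2.32, -0.31 to 1.51, -0.68 to 1.70 and -0.86 to 1.24, in that order. All of them include the median of this contrast over 5255 matched promoter peaks, 0.69, with Skil again above it and the other 3 genes below it.

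The Skil value needs its windows beside it. The windows behind 1.24 overlap by 330 of 601 bp, and those behind 1.35 by 254 bp. In the same 4 KO-labelled libraries after PPx, the authors' mean was 5.20 in the window centred at -288 bp and 4.93 in that centred at -20 bp, a gap of 0.27, while the median gap of 12273 matched peaks between those tables was 0.00. In the 4 controls after PPx, the mean was 4.11 at -288 bp and 3.89 at -367 bp. The part of window placement in the Skil difference was not tested.

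The remaining pathway was read from a list of 48 other TGF-beta and activin genes, of which 18 had a peak in at least 1 table. In the genotype comparison after PPx, 15 genes had 19 peaks, of which 5 were gained, 0 lost and 14 did not pass. Among all peaks of that comparison 9.89% were gained, and among its promoter peaks 14.3%. The median log2 fold of those peaks was 0.49, below the 0.61 of all peaks. The peaks of Ppm1a, Trim33, Ltbp1 and Inhbb, an intron peak of Nedd4l and a promoter peak of Acvr1c were called in 0 control libraries. They were listed only through the KO-labelled group, and the median and counts include them. Of these peaks, only that of Trim33 was called as gained. Among ligands, which are the activin subunit genes Inhba and Inhbb here, 0 of 3 peaks were gained, with folds of 0.51 at the Inhba promoter, 0.28 in an Inhba intron and 0.18 at a distal Inhbb peak in the authors' deposited table. Among genes for proteins that bind ligand or block receptors, 1 of 4 peaks was gained, at the promoter of Bambi, a pseudoreceptor that lacks kinase activity, with a log2 fold of 0.97 (at an FDR of 0.046) in the authors' deposited table. Fstl3, a follistatin-like activin antagonist, had a promoter fold of 0.18 (at an FDR of 0.637) in the authors' deposited table.

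Among the other receptors, Acvr1c, which encodes the type I receptor ALK7, held both gained peaks of 4. One of its promoter peaks had means of 3.45 and 4.71 and a log2 fold of 1.27 (implied SE 0.38 and FDR 0.0286) in the authors' deposited table, and an intron peak had means of 5.09 and 6.14 and a log2 fold of 1.05 (implied SE 0.31 and FDR 0.0286). A further Acvr1c promoter peak had a fold of 0.26, and an intron of Acvr1, another type I receptor gene, had 0.22, both far from the threshold in the authors' deposited table. For the Smad4 promoter, whose product is the partner of SMAD2, the authors' deposited table gave a fold of 0.64 (at an FDR of 0.187), near the overall median. Among inhibitors and co-repressors 1 of 6 peaks was gained, at the promoter of Trim33, a ubiquitin ligase that acts on SMAD4, with a log2 fold of 1.16 (at an FDR of 0.0436) in the authors' deposited table. The authors called that peak in 3 of the 4 KO-labelled libraries and in 0 of the 4 controls, so it was listed only through the group where it is high. For Ski, the close relative of Skil, the authors' deposited table gave a promoter fold of 0.44 (at an FDR of 0.299), and for the homeobox repressor gene Tgif1 it gave 0.18 (at an FDR of 1). The promoter of Cdkn2b, a cell cycle inhibitor gene and known target of the pathway, had means of 4.43 and 5.44 and a log2 fold of 1.01 (at an FDR of 0.0458) in the authors' deposited table. With Benjamini-Hochberg adjustment over all listed peaks, the gained peaks of the list numbered 2, both of Acvr1c, where 4.20% of all peaks were called. With folds centred on the median of all peaks they numbered 0, where 0.389% of all peaks were called.

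**Figure D4:**
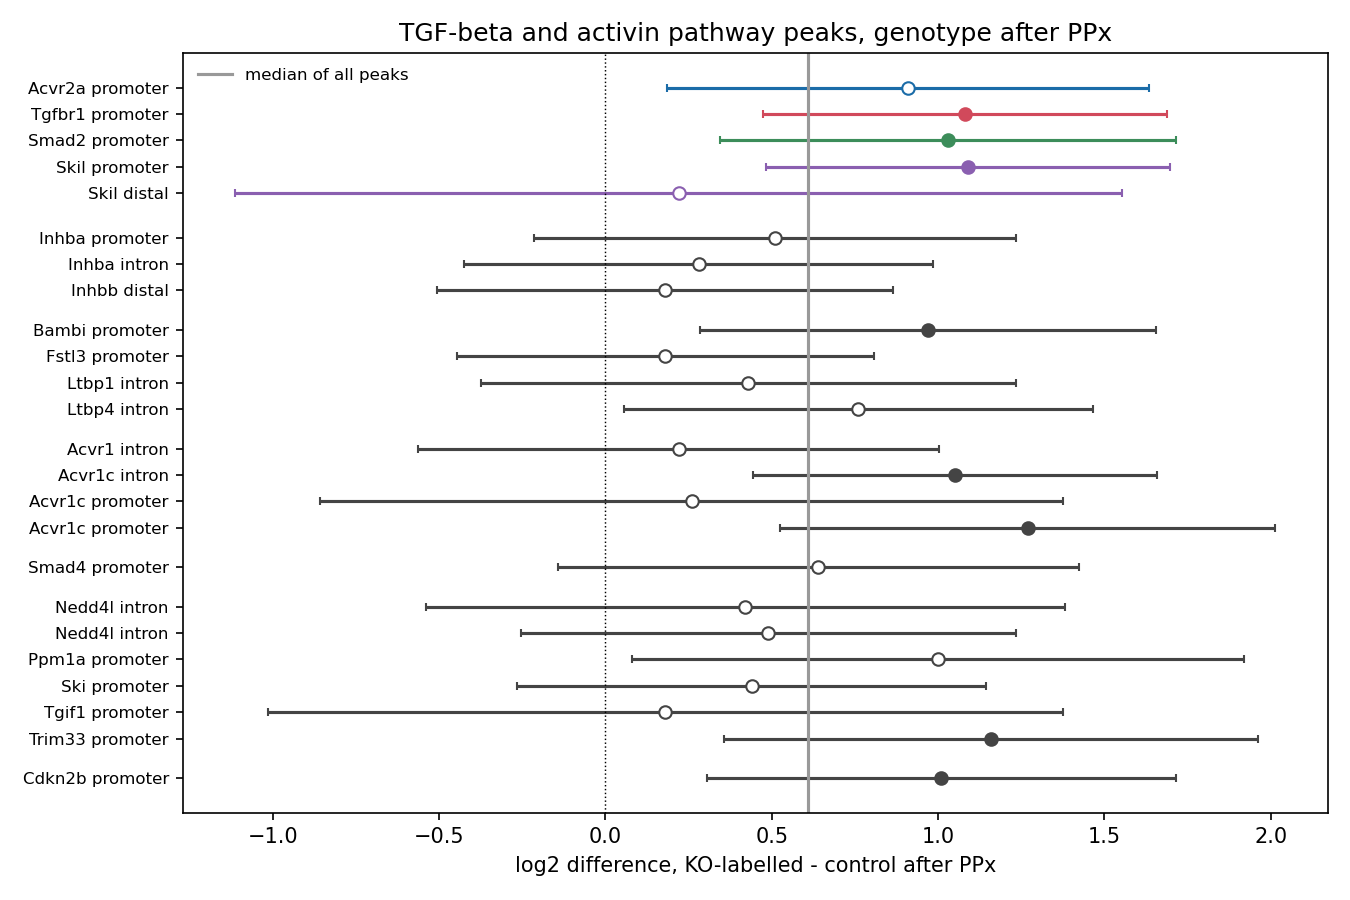
Log2 difference between KO-labelled and control islets after PPx (points; filled where the authors' FDR was 0.05 or below) with 95% intervals from the implied SE, for the 4 genes (coloured) and the pathway list grouped by role (dark grey). The grey line is the median of all peaks, 0.61; the filled points range from 0.97 at Bambi to 1.27 at an Acvr1c promoter.

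In the other comparisons the list gave few calls. Before PPx, 0 of its 14 peaks were called in the genotype comparison, where 0.0128% of all peaks were. The median fold was 0.26 against 0.00 for all peaks, and 11 peaks lay above 0, as did 48.9% of all peaks. The lowest unadjusted p of the authors' test among the 14 was 0.151, at an Inhba intron peak. In controls across PPx, 0 of 11 peaks were called, where 0% of all peaks were, with a median of 0.12 against 0.16. The lowest unadjusted p of the authors' test among the 11 was 0.0628, at the same Inhba intron. In KO-labelled islets across PPx, 1 of 21 peaks was gained and 0 lost, where 7.45% of all peaks were gained, and the median was 0.57 against 0.83. That peak was the Acvr1c intron, with means of 4.93 before and 6.12 after PPx and a fold of 1.20 (implied SE 0.39 and FDR 0.041) in the authors' deposited table.

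Markers of islet and other cell types were read in the genotype comparison after PPx. Of 8 beta cell marker genes, 4 had 6 listed peaks with a summed mean of 65.6 reads in controls and 130.4 in KO-labelled islets, and 2 of the 6 peaks were gained, the promoters of Ins1 and Nkx6-1, where 9.89% of all peaks and 14.3% of promoter peaks were gained and the median fold of all peaks was 0.61. The 4 beta peaks that did not pass were the promoters of Mafa (log2 fold 0.38) and Ucn3 (0.05) and distal peaks of Nkx6-1 (1.52 and 0.70). For alpha cells, 3 of 4 marker genes had 4 peaks, summed at 46.4 and 58.5 reads, with 0 gained. Endothelial markers had 5 peaks summed at 40.4 and 43.8 reads, and stellate and fibroblast markers 2 peaks summed at 25.6 and 36.2 reads, with 0 gained in either. The delta and PP markers had 1 peak at 18.4 and 39.9 reads, which was gained, the leukocyte markers 1 peak at 5.9 and 11.3 reads, and the acinar and ductal markers had no listed peak. All endothelial, stellate and fibroblast, and delta and PP peaks were annotated as distal intergenic, as were some alpha and beta peaks. The endothelial, stellate and fibroblast peaks were each called in at most 2 libraries of a group. The peaks of Mafa, Irx2, Plvap and Ptprc, the distal peaks of Nkx6-1 and a distal peak of Cdh5 were called in 0 control libraries. They were listed only through the KO-labelled group, and the sums include them. These sums therefore do not measure the share of a cell type. The part of cell composition in the gains of Tgfbr1, Smad2 and Skil was not tested.

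Peaks most like those of the 4 genes were sought over the 8 group means of all tables, among 4912 promoter peaks listed in all 4 tables, by Euclidean distance in log2 units. Peaks of genes with Gm, Rik or Mir names were left out as neighbours, so such a peak may lie nearer than those named. Nearest to Acvr2a were Zfp959 (0.21), Zfp389 (0.24) and Abhd18 (0.26). The nearest to Tgfbr1 were Pfkfb3 (0.26), Ube2cbp (0.29) and Nbeal1 (0.33). Smad2 lay nearest to Taf13 (0.33), Cdkn2c (0.36) and Alkbh3 (0.36), and Skil to Metap1 (0.31), Tmem245 (0.35) and Sowahc (0.36). Distances between the 4 genes were larger, from 1.11 between Tgfbr1 and Skil to 3.34 between Acvr2a and Smad2. The 8 means come from 15 libraries that are each used in 2 tables, so likeness here is mostly likeness of level.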

How the data were processed

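The 15 ATAC-seq libraries, each from 40000 islet cells and read from a single end over 75 bp (per the labels' protocols), were grouped by sample title. The submitters' processing notes name cutadapt, BWA, MACS, DiffBind and ChIPseeker and build mm10. Not given in the sources used here are versions, settings and library scaling. The authors deposited group means and folds as log2 values, with a p-value and an FDR per peak from a test whose method the headers do not name, and the number of libraries in which each peak was called, a count of libraries and not of reads. Repeated rows (1197, 5281, 1337 and 4588) and 1 blank row were dropped. Signs of folds were turned so that a positive value is higher under the KO label or after PPx. A peak was called at the authors' FDR of 0.05 or below. Implied standard errors came from fold and p. Where the fold was under 0.1 or p reached 0.95, the median of its bin among 40 bins by concentration stood in. Between tables, peaks sharing 1 bp or more were paired. Centred calls used the implied errors with Benjamini-Hochberg adjustment. They were also run on simulated folds drawn with those same errors, which cannot check the errors themselves. No new model was fitted, and depth per library is unknown. Values per library were not analysed here, so no library was left out in turn. Named genes were the 4 genes, called peaks of the pathway and BMP lists, the 3 highest and 3 lowest pathway folds after PPx, the 3 nearest patterns, and Arid1a. Inhba, Acvr1, Smad4, Smad1, Ski, Nedd4l, Ppm1a, Ltbp1 and further Acvr1c and Bmpr2 values were added after they were seen. The cell type markers Ins1, Nkx6-1, Mafa, Ucn3, Irx2, Plvap, Ptprc and Cdh5 were also named outside that rule, after their values were seen. The genes and lists were chosen with earlier results of these data known. Nothing says more of how replicates relate than 1 mouse per library, so p-values were read as measuring the spread between those mice, an assumption since the test is not named. Python 3.11.15, pandas 2.3.3, SciPy 1.17.1 and Matplotlib 3.10.9 were used.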

Additional observations from a re-analysis of the deposited data

How the results depend on the processing

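Of the 5 peaks in the genotype table after PPx, 3 were called by the authors' FDR of 0.05, 0 at an FDR of 0.01 (against 0.0229% of all peaks), 4 with Acvr2a added at an FDR of 0.1 (against 25.9%), and 0 with folds centred on the median of all peaks or on that of promoter peaks. In PPx in KO-labelled islets, the count was 0 at an FDR of 0.05 and 2, Smad2 and Skil, at 0.1 (against 31.1% of all peaks). Centring on all peaks turned the sign at the distal Skil peak after PPx (-0.39), at Acvr2a (-0.26) and at Tgfbr1 (-0.38) in PPx in KO-labelled islets. Centring on promoter peaks gave -0.49, -0.29 and -0.41 there. The median difference of the genotype effect after and before PPx over the 4 promoters was 0.54 and turned to -0.07 with each table centred, where Tgfbr1 was at -0.01, Smad2 at -0.13 and Acvr2a at -0.49. Skil was then at 0.63, beside an implied SE of 0.49 for its uncentred difference, from windows overlapping by 330 bp. Whether 0.63 differs from 0 was not tested. The turns of sign follow from the subtraction itself, of 0.61 and 0.83 for all peaks and of 0.71 and 0.86 for promoter peaks. Keeping repeated rows changed no count of called peaks of the 4 genes. Requiring an overlap of 300 bp, run for the difference between genotype tables only, changed none of its 4 values; the Skil windows behind 1.35 overlap by less. No paired analysis was possible because sample numbers in the titles are not shared between groups and the tables hold group means. Leaving out single libraries was not run for the same reason.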

Other observations

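The BMP branch, which signals through related receptors and SMAD1, SMAD5 and SMAD9, had few listed peaks: 4 of 12 genes of a list had 7 peaks in the genotype table after PPx. There 0 were gained, where 9.89% of all peaks were, and 1 of 7 was gained in PPx in KO-labelled islets, where 7.45% were. That peak was the promoter of Bmpr2, the BMP type II receptor gene, with authors' means of 2.16 before and 3.92 after PPx and a log2 difference of 1.77 (implied SE 0.56 and FDR 0.0387) in the authors' deposited table. In the genotype comparison after PPx the same promoter had means of 2.47 and 3.92 and a difference of 1.45 (implied SE 0.44) in the authors' deposited table, at an unadjusted p of 0.00108 but a deposited FDR of 1. With Benjamini-Hochberg adjustment over all listed peaks it was the 1 BMP peak called in that comparison, where 4.20% of all peaks were. Both comparisons share the 4 KO-labelled libraries taken after PPx, in 2 of which the peak was called. It was called in 0 libraries of the other group in either comparison, so it was listed only through the group where it is high. The promoter of Smad1 had differences of 0.53 before PPx and 0.57 after it in the authors' deposited tables, neither of them called.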
